A study of Mus musculus with 16 samples.

Results

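The genes described here are those of the Sin3 and HDAC complex, a set of 10 listed by name and not by any measured value: Sin3a, Sin3b, Hdac1, Hdac2, Rbbp4, Rbbp7, Sap30, Suds3, Ing1 and Ing2. Each was matched to 1 Ensembl identifier among the 22375 genes counted, and all 10 were among the 15762 genes that passed the filter on low counts. Expression was measured by RNA-Seq of ribosomal RNA-depleted total RNA in WT ES cells (E14Tg2a, strain 129/OLA) and in Cfp1-/- ES cells of the same strain, either left untreated or exposed to doxorubicin for 6 hours. Each of the 4 groups held 2 biological replicates, each sequenced in 2 technical runs, which gives 16 samples and n = 2 per group. All cells were grown on gelatin in serum with LIF. The deposited treatment protocol gives the doxorubicin dose as 1 μM, but the label of the treated samples reads 1 mM. Whether the Cfp1-/- cells came from 1 clone is not given in the sources used here, so an effect of Cfp1 loss and a difference between 2 cell lines cannot be told apart.

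Sin3a and Sin3b are large scaffold proteins that do not bind DNA by themselves. They bring the histone deacetylases Hdac1 and Hdac2 to promoters through sequence-specific factors, and removal of acetyl groups from histone tails there is associated with lower transcription. Rbbp4 and Rbbp7 are WD40-repeat proteins that hold histones, Sap30 and Suds3 are adaptor subunits, and Ing1 and Ing2 carry a PHD finger that binds trimethylated lysine 4 of histone H3. Cfp1, encoded by Cxxc1, binds unmethylated CpG dinucleotides and is a subunit of the Set1 complex, which places that H3K4 mark. Doxorubicin intercalates into DNA, blocks topoisomerase II and so causes DNA breaks. Hdac1, Hdac2, Rbbp4 and Rbbp7 are shared with the NuRD complex, and the deacetylases also with CoREST.

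Raw counts summed to between 14880589 and 29422711 per biological replicate. Cxxc1 had 616 to 1412 counts in the 4 WT libraries and 1 to 4 in the 4 Cfp1-/- libraries, at or near the floor of 3 counts. All 10 ES cell markers examined were detected in every group. In WT cells 9 of them were called lower after doxorubicin, beside 22.8% of all tested genes. When scaled to total counts 5 were, beside 1947 of the 15762 tested genes. The summed level of the 10 markers went from between 3569 and 4486 CPM (counts scaled to library size, the usual unit of RNA-Seq levels) to between 1789 and 2242. In Cfp1-/- cells 8 markers were called lower, beside 21.4% of all tested genes. When scaled to total counts 8 were as well, beside 2128 of the 15762 tested genes. The summed level of the markers there went from between 3915 and 4115 CPM to between 1765 and 1930. These sums hide differences between the untreated lines, where 4 markers were lower and 2 higher in Cfp1-/- cells. Over all tested genes 17.2% were lower and 18.7% higher. Scaled to total counts 2 markers were lower and 3 higher, beside 1701 and 4040 of all tested genes. Fibroblast markers summed to between 6.01 and 10.3 CPM in untreated and between 21.3 and 30.6 CPM in treated libraries, with Lum at or under 3 counts in each. Markers of other lineages summed to between 38.7 and 75.9 CPM in untreated WT cells and to at most 10.4 CPM in the other groups, with Pax6 alone at between 29.3 and 70.5 CPM in untreated WT cells. These marker sums are scaled to total counts, whereas the CPM of single genes below use library sizes adjusted by TMM, edgeR's correction for RNA composition. The part of these markers in the results below was not tested, and fewer cells of a type and less RNA per cell cannot be told apart in bulk RNA.

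A pair of technical runs stood apart and touched several of the 10 genes. In 6 of the 8 libraries the runs differed by about sampling noise (chi-square per degree of freedom 0.998 to 1.05), but replicate 1 of treated WT cells reached 9.61 and replicate 1 of treated Cfp1-/- cells 42.9. The second run of the latter held no counts for 439 of the 8320 genes with at least 200 counts in its first run, all on chromosomes 19, X and Y, and Rbbp7, on X, had 3480 counts in the first run and 0 in the second. That run was left out of the values given here. Relative to the median gene, the second run of treated WT replicate 1 gave 0.61 times the first for Suds3, 0.57 for Sap30, 0.75 for Hdac2 and 1.20 for Hdac1. The left-out run deviated in the same directions, with 0.55 for Suds3, 0.79 for Sap30, 0.74 for Hdac2 and 1.29 for Hdac1. Sin3a, Sin3b and Rbbp4 lay between 0.92 and 1.02 in both.

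In the build of the deposited tables (NCBIm37, mm9) Sin3a lies on the plus strand at chr9:56919847-56976173 and Sin3b on the plus strand at chr8:75247187-75282102. Hdac1 (minus strand, chr4:129193348-129219957) lies close to Rbbp4 (minus strand, chr4:128984344-129012614), and Hdac2 is at chr10:36694350-36721695 on the plus strand. Rbbp7 is at chrX:159198334-159217024 on the plus strand and Suds3 at chr5:117541691-117566002 on the minus strand. The remaining genes share chromosome 8 with Sin3b, with Sap30 at chr8:59961504-59966657 (minus), Ing1 at chr8:11556066-11563250 (plus) and Ing2 at chr8:48752532-48760910 (minus). Rbbp4, Rbbp7 and Ing2 each overlap a gene on the opposite strand, Sync, Txlng and AA386476 respectively, from which stranded counting keeps them apart. Hdac1 has a pseudogene copy, Hdac1-ps, so its count is less certain.

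Because Cfp1 binds CpG dinucleotides, the 250 bases upstream of each annotated gene start were read from NCBIm37 on the gene's strand, and CG was counted, a motif that reads the same on both strands. At least 1 CG was present in 98.0% of the 15758 windows of tested genes that could be read, with a median of 13 and quartiles of 6 and 21. The scaffold genes both held 12, near that median, whereas the other 8 held 18 (Sap30), 24 (Hdac1 and Ing1), 26 (Suds3), 27 (Hdac2), 30 (Rbbp4), 32 (Ing2) and 33 (Rbbp7). The windows of 4 genes are shown, those of Sin3a and Sin3b because the paralogues moved in opposite directions under doxorubicin and those of Rbbp7 and Ing1 because these genes had the largest differences between untreated lines. Capitals mark CG.
Sin3a, chr9:56919597-56919846, plus strand: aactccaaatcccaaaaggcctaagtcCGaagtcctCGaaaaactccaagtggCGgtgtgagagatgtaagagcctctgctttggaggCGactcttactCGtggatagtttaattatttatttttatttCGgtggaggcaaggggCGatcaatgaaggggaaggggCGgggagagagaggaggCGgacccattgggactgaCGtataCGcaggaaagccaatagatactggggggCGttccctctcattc
Sin3b, chr8:75246937-75247186, plus strand: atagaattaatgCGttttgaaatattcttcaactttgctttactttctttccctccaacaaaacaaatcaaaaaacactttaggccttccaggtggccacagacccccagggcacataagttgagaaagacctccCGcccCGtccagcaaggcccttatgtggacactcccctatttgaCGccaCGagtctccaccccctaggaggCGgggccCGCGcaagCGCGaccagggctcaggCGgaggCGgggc
Rbbp7, chrX:159198084-159198333, plus strand: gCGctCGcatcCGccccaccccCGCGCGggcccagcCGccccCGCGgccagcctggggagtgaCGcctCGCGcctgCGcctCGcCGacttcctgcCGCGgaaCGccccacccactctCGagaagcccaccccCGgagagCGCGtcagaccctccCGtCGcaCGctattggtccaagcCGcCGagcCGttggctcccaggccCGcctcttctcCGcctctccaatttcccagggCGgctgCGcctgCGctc
Ing1, chr8:11555816-11556065, plus strand: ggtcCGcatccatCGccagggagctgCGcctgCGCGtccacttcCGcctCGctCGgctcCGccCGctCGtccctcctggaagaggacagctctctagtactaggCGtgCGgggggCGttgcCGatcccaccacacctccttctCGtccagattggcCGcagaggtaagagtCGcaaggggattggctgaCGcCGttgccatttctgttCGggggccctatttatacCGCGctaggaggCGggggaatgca
A count of CG is a description of these windows and says nothing of whether Cfp1 was bound there.

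Levels were compared between genes as CPM per kilobase of exon. In untreated WT cells Rbbp7 was highest, at 178 ± 20.5 CPM per kb (SD, n = 2), against a median of 4.30 over all tested genes. Sin3a followed at 94.0 ± 12.2 and Sap30 at 85.2 ± 11.8, and the replicates of these 2 genes overlapped. Hdac2 (66.9 ± 3.29), Suds3 (62.9 ± 1.5) and Hdac1 (61.2 ± 4.63) came next, and the replicates of Suds3 and Hdac1 overlapped. Rbbp4 stood at 42.1 ± 3.29, Ing1 at 29.2 ± 3.68 and Sin3b at 24.4 ± 0.913, each clear of its neighbours. Ing2 was lowest, at 9.30 ± 0.593 CPM per kb, and still above 63.8% of tested genes, whereas Rbbp7 was above 98.1%. In untreated Cfp1-/- cells the order differed in 2 places, where Hdac1 exceeded Suds3 and Sin3b exceeded Ing1. After doxorubicin the middle of the order was no longer clear in WT cells. From Hdac1 (54.1 ± 5.39 CPM per kb) through Hdac2, Suds3, Sin3b, Sin3a, Rbbp4 and Sap30 down to Ing1 (24.7 ± 1.85), the replicates of each gene overlapped those of the next. Replicate 1 there includes the second run in which Suds3, Sap30, Hdac2 and Hdac1 deviated. In treated Cfp1-/- cells the only neighbours that overlapped were Suds3 with Sin3a, Sin3a with Sap30 and Sin3b with Rbbp4.

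**Figure D1:**
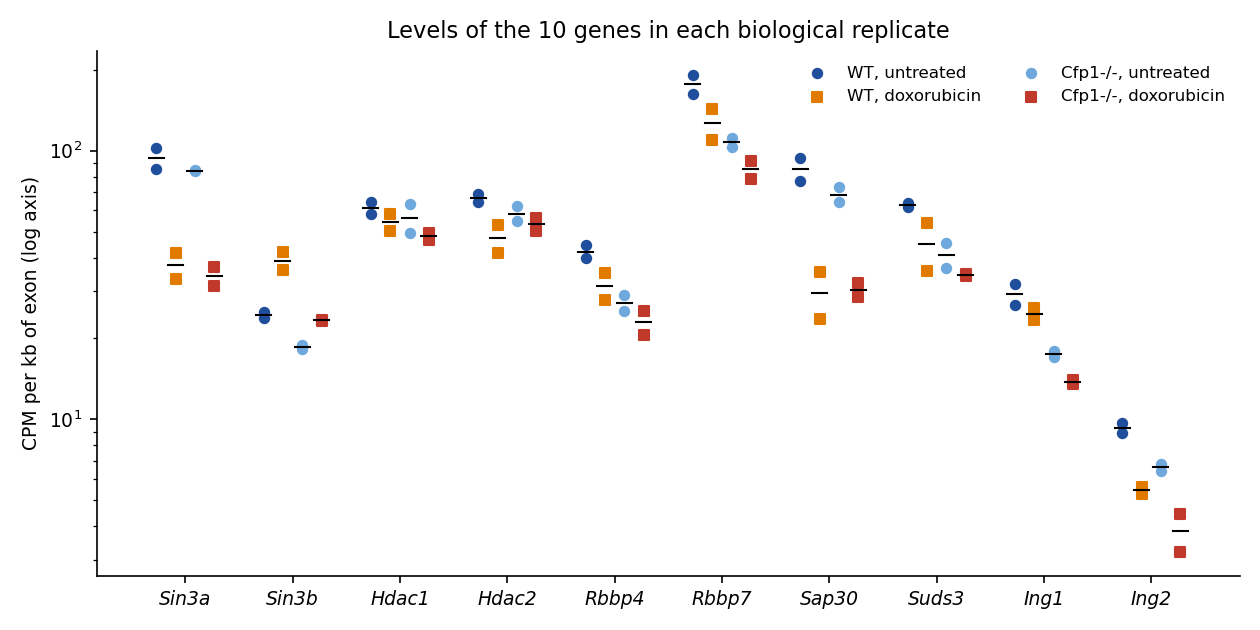
Level of each of the 10 genes in CPM per kb of exon on a log axis, with 1 point per biological replicate and a bar at the mean of the 2 replicates. Rbbp7 stands highest in all 4 groups and Ing2 lowest, and Sin3a and Sap30 are lower in the treated groups (squares) than in the untreated groups (circles).

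The first question was how the complex genes respond to doxorubicin in WT cells. Sin3a and Sap30 fell most, Sin3b rose, and Ing2, Hdac2, Rbbp7 and Rbbp4 fell by smaller amounts. Thus 7 of the 10 genes changed at an adjusted p under 0.05 in edgeR's quasi-likelihood test, 6 lower and 1 higher, whereas over all tested genes 22.8% were called lower and 27.0% higher. The median log2 fold change of the 10 genes was -0.49, beside 0.06 over all tested genes.

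Among the scaffolds, Sin3a was at 554 and 461 CPM in the untreated WT replicates and at 225 and 180 CPM after doxorubicin. Every treated library lay below every untreated one, as was so for 33.9% of all tested genes, while in 39% every treated library lay above. The log2 fold change of Sin3a was -1.33 ± 0.15 (SE, adjusted p = 0.00011), or 2.51-fold lower. Its paralogue Sin3b was at 102 and 108 CPM untreated and 155 and 180 CPM treated, without overlap and in the opposite direction. The log2 fold change of Sin3b was 0.67 ± 0.12 (adjusted p = 0.0012), or 1.60-fold higher.

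Sap30, an adaptor that binds the scaffold and Hdac1, was at 110 and 90.6 CPM untreated and 27.9 and 41.7 CPM treated. Its log2 fold change of -1.53 ± 0.20 (adjusted p = 0.00022), or 2.88-fold lower, was the largest among the 10. With the second run of WT replicate 1, in which Sap30 deviated, left out as well, Sap30 remained lower, at a log2 fold change of -1.43 (adjusted p = 0.00012). Suds3, an adaptor with a role in dimerisation of the complex, was at 150 and 155 CPM untreated and at 86.6 and 130 CPM treated. The groups did not overlap, but its log2 fold change of -0.49 ± 0.18 narrowly missed the threshold (adjusted p = 0.051). With the replicate number as a block it was -0.51 (adjusted p = 0.0080). Suds3 also passed with DESeq2 (adjusted p = 0.024), DESeq2 size factors (0.038), no filter on low counts (0.020) and limma on the deposited normalized counts (0.037). It did not pass when scaled to total counts (-0.18, adjusted p = 0.46), with all or only the first technical runs, or with the WT groups fitted alone. Without the second runs of both treated replicates 1 it passed only with the block (-0.41, adjusted p = 0.011).

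Of the catalytic subunits, Hdac2 fell from 290 and 310 CPM to 186 and 237 CPM, a log2 fold change of -0.50 ± 0.14 (adjusted p = 0.016). Hdac1 was at 199 and 222 CPM untreated and 199 and 173 CPM treated, with overlapping groups and a log2 fold change of -0.18 ± 0.14 (adjusted p = 0.33). A change of Hdac1 between -0.50 and 0.15 was within the 95% interval.

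The histone-binding subunits both fell. Rbbp7 went from 474 and 559 CPM to 318 and 417 CPM (log2 fold change -0.49 ± 0.16, adjusted p = 0.027). Rbbp4 went from 347 and 388 CPM to 306 and 243 CPM (log2 fold change -0.42 ± 0.16, adjusted p = 0.047). Rbbp4 lay just inside the threshold.

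The PHD finger genes differed in level and in their calls. Ing2 fell from 26.8 and 29.3 CPM to 16.9 and 16.0 CPM, a log2 fold change of -0.77 ± 0.19 (adjusted p = 0.0077). Ing1 was at 93.6 and 78.2 CPM untreated and 68.9 and 76.6 CPM treated, with a log2 fold change of -0.24 ± 0.13 (adjusted p = 0.17).

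These smaller changes depended on scaling, on the libraries fitted and on single libraries. Scaling to total counts raised the median of all tested genes by 0.31 on the log2 scale and the share of calls that were higher from 54.2% to 75.1%. Sin3a, Sap30 and Sin3b passed under that scaling, with log2 fold changes of -1.01, -1.21 and 0.99. Ing2 (-0.46), Hdac2 (-0.19), Rbbp7 (-0.18) and Rbbp4 (-0.11) did not, and the estimates of Hdac1 (0.14) and Ing1 (0.07) turned positive without passing. Hdac2 lost its call without untreated WT replicate 2 (-0.47, adjusted p = 0.072) or treated WT replicate 1 (-0.34, adjusted p = 0.10), as did Rbbp7 (-0.38, adjusted p = 0.14, and -0.31, adjusted p = 0.16). With the 2 WT groups fitted alone Rbbp7 (adjusted p = 0.060) and Rbbp4 (0.065) lost their calls, and Rbbp4 also with all technical runs (0.059). Rbbp4 lost its call without untreated WT replicate 1 (-0.50, adjusted p = 0.064), untreated WT replicate 2 (-0.35, adjusted p = 0.17), treated WT replicate 2 (-0.27, adjusted p = 0.24) or untreated Cfp1-/- replicate 2 (-0.43, adjusted p = 0.053), and Suds3 gained one without treated WT replicate 2 (-0.82, adjusted p = 0.0038). Sin3a, Sin3b, Sap30 and Ing2 kept theirs in all 8 such fits.

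By the limits the study set, which add a 2.5-fold minimum and drop genes averaging under 200 normalized counts, Sin3a and Sap30 were called lower in WT cells, beside 2.8% of tested genes.

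The same comparison was then made in Cfp1-/- cells. Sin3a, Sap30 and Ing2 fell and Sin3b rose, so that 4 of the 10 genes changed, 3 lower and 1 higher. Over all tested genes 21.4% were called lower and 27.7% higher. The median log2 fold change of the 10 genes was -0.29, beside 0.01 over all tested genes.

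Sin3a went from 456 and 455 CPM to 200 and 169 CPM in Cfp1-/- cells, a log2 fold change of -1.30 ± 0.15 (adjusted p = 0.00014). This was 2.47-fold lower, just short of the study's limit of 2.5-fold, and none of the 10 genes met that limit in these cells, where 2.21% of tested genes were called lower by it. Sap30 went from 75.7 and 86.0 CPM to 37.9 and 33.8 CPM, a log2 fold change of -1.18 ± 0.20 (adjusted p = 0.0010). Ing2 went from 20.6 and 19.4 CPM to 13.4 and 9.70 CPM, a log2 fold change of -0.80 ± 0.19 (adjusted p = 0.0072). In these 3 genes the treated libraries all lay below the untreated ones, as they did in 37.3% of all tested genes.

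Sin3b went from 78.6 and 81.5 CPM to 100.5 and 100.2 CPM, higher without overlap, as were 40.3% of all tested genes. Its log2 fold change of 0.33 ± 0.12 passed narrowly (adjusted p = 0.043) and was not called by DESeq2 (0.29, adjusted p = 0.097), with DESeq2 size factors (0.067), without a filter on low counts (0.087), with all technical runs (0.052) or by limma on the deposited normalized counts (0.077). It also lost the call in 6 of the 8 fits that left out a replicate, namely those without either untreated WT replicate, either untreated Cfp1-/- replicate or either treated Cfp1-/- replicate (0.28 to 0.34, adjusted p 0.11 to 0.17). Ing2 lost its call without treated Cfp1-/- replicate 2 (-0.58, adjusted p = 0.085).

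The other 6 genes had negative estimates in Cfp1-/- cells that did not pass. Ing1 went from 52.9 and 50.1 CPM to 39.7 and 41.2 CPM, a log2 fold change of -0.35 ± 0.14 with an adjusted p of 0.057, and of 0.039 with the replicate number as a block. It also passed without untreated WT replicate 1 or 2 (-0.40 in each, adjusted p = 0.038 and 0.037), with DESeq2 (0.048), DESeq2 size factors (0.038) and the 2 Cfp1-/- groups fitted alone (0.047). Rbbp7 went from 300 and 325 CPM to 267 and 229 CPM (-0.33 ± 0.16, adjusted p = 0.11). With the run that had lost chromosome X included, Rbbp7 read -0.63 (adjusted p = 0.015), and by limma on the deposited normalized counts, which include that run, -0.68 (0.011). The estimates for Suds3, Hdac1, Rbbp4 and Hdac2 were -0.25, -0.23, -0.24 and -0.13 on the log2 scale. Scaling to total counts raised the median of all genes by 0.21 and the share of higher calls from 56.4% to 71.0%, kept the same 4 calls and turned the estimate of Hdac2 to 0.08.

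**Figure D2:**
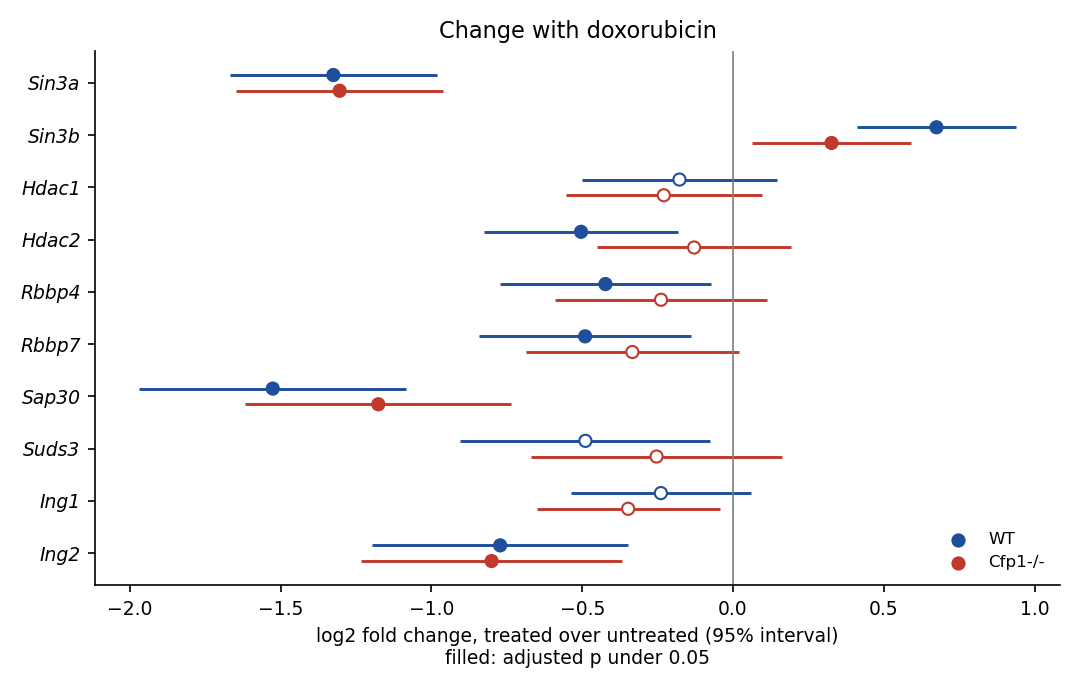
Log2 fold change of each gene with doxorubicin in WT and Cfp1-/- ES cells, with 95% intervals from edgeR, where filled points passed an adjusted p of 0.05. Sin3a is at -1.33 in WT and -1.30 in Cfp1-/- cells, and Sin3b is the gene right of 0 in both lines.

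Whether the responses differed between the lines was tested as an interaction. None of the 10 genes passed in edgeR or in DESeq2. None had an unadjusted p under 0.05 in edgeR, beside 1809 of the 15762 tested genes. Over all tested genes 0.0952% were called with a higher and 0.152% with a lower response in Cfp1-/- cells. For Sin3a the difference in log2 response was 0.02, with a 95% interval from -0.46 to 0.50. The interval for Sin3b ran from -0.72 to 0.02 around an estimate of -0.35 (adjusted p = 0.47), so a smaller rise in Cfp1-/- cells was not detectable but lies within it. For Hdac2 the estimate was 0.37 (-0.08 to 0.83, adjusted p = 0.52) and for Sap30 0.35 (-0.27 to 0.97, adjusted p = 0.68).

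The 4 paralogue pairs were then compared as ratios of counts within a library, which no scaling between libraries can alter. Per kb of exon, Sin3a exceeded Sin3b 4.32-fold and 3.41-fold in untreated WT cells, and 4.62-fold and 4.45-fold in untreated Cfp1-/- cells. After doxorubicin the ratio was 1.16 and 0.80 in WT and 1.58 and 1.34 in Cfp1-/- cells. The treated and untreated libraries did not overlap in either line, and in 1 treated WT library Sin3b was the more abundant of the 2 transcripts per kb. The mean change was -1.82 on the log2 scale, or 3.52-fold lower, with -2.0 in WT and -1.64 in Cfp1-/- cells, against a replicate SD of 0.24. The exact two-sided permutation test within lines gave p = 0.056, the smallest that its 36 arrangements allow, so it could not pass 0.05 (adjusted p = 0.11 over the 4 pairs).

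The Ing1 to Ing2 ratio per kb was 3.58 and 2.73 in untreated WT cells and 4.18 and 4.92 after doxorubicin. In Cfp1-/- cells it was 2.63 and 2.64 untreated and 3.03 and 4.36 treated. The mean change was 0.50 on the log2 scale with a replicate SD of 0.25 and the same smallest exact permutation p of 0.056 (adjusted p = 0.11). For Hdac1 to Hdac2 the ratio lay between 0.80 and 1.4 in all 8 libraries, with a mean log2 change of 0.12 under doxorubicin that was smaller than the replicate SD of 0.28 (exact permutation p = 0.56). The Rbbp4 to Rbbp7 ratio lay between 0.19 and 0.32, with a mean log2 change of 0.08 and a replicate SD of 0.28 (exact permutation p = 0.78). Between the lines, the Sin3a to Sin3b ratio was higher in Cfp1-/- cells by 0.42 on the log2 scale, 0.24 untreated and 0.60 treated (exact permutation p = 0.056, adjusted p = 0.22), and the p-values of the other 3 pairs lay between 0.22 and 0.72.

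**Figure D3:**
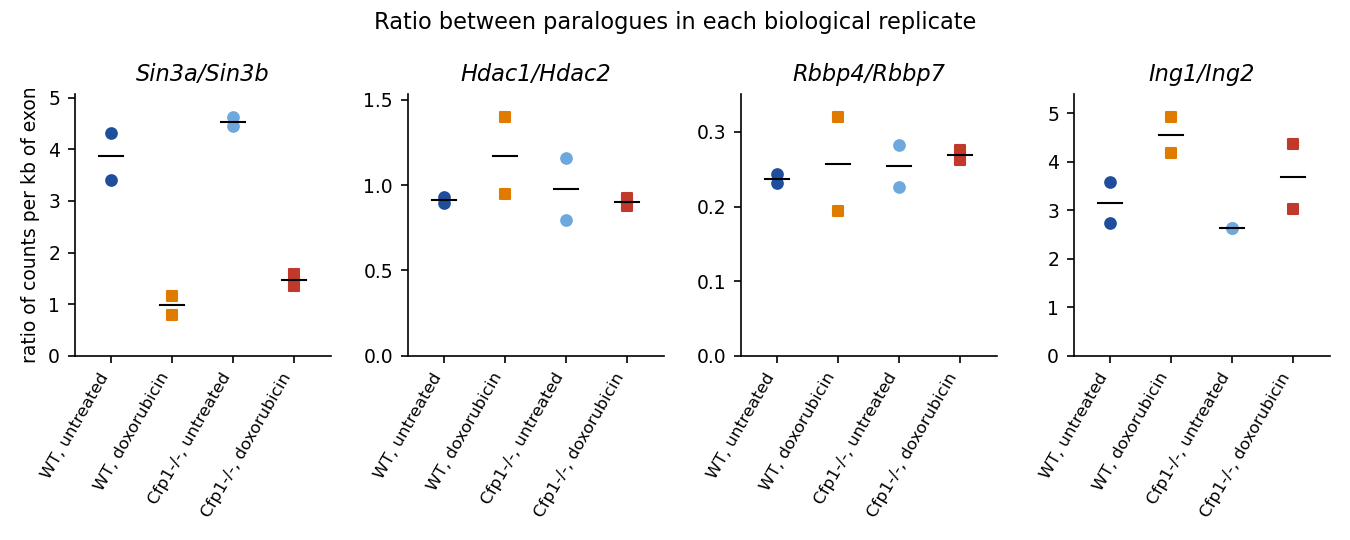
Ratio of counts per kb of exon between paralogues, with 1 point per biological replicate, a bar at the mean of 2 and a separate linear axis from 0 for each pair. The Sin3a to Sin3b ratio lies between 3.41 and 4.62 in the untreated and between 0.80 and 1.58 in the treated libraries, whereas the Hdac1 to Hdac2 ratio overlaps between groups.

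The last question was whether the lines differ in these genes. In untreated cells all 10 estimates were below 0 in Cfp1-/- relative to WT cells, and 5 genes were lower at an adjusted p under 0.05, namely Ing1, Rbbp7, Rbbp4, Suds3 and Sin3b. None was higher. Over all tested genes 17.2% were called lower and 18.7% higher, and the median log2 fold change was -0.44 over the 10 genes and 0.01 over all.

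Ing1 was at 93.6 and 78.2 CPM in untreated WT and 52.9 and 50.1 CPM in untreated Cfp1-/- cells, a log2 fold change of -0.74 ± 0.13 (adjusted p = 0.0030). Rbbp7 was at 474 and 559 CPM against 300 and 325 CPM (-0.72 ± 0.16, adjusted p = 0.0068). Its partner Rbbp4 was at 347 and 388 CPM against 254 and 221 CPM (-0.63 ± 0.16, adjusted p = 0.012). In each of these genes the lines did not overlap, and 34.1% of all tested genes had both Cfp1-/- libraries below both WT libraries. Suds3 was at 150 and 155 CPM against 88.8 and 110 CPM (-0.62 ± 0.18, adjusted p = 0.027), and Sin3b at 102 and 108 CPM against 78.6 and 81.5 CPM (-0.39 ± 0.12, adjusted p = 0.028). Ing2 was at 26.8 and 29.3 CPM against 20.6 and 19.4 CPM (-0.49 ± 0.19), with an adjusted p of 0.068, and of 0.033 with the replicate block.

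Sin3a, Hdac1, Hdac2 and Sap30 had untreated differences of -0.16, -0.12, -0.20 and -0.31 on the log2 scale, none of which passed. For Hdac1 the 95% interval ran from -0.44 to 0.21, and for Sin3a from -0.49 to 0.18.

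In treated cells 3 of the 10 genes were lower in Cfp1-/- cells and none higher, beside 12.1% of tested genes lower and 16.0% higher. With the replicate block 5 were lower. The block also raised the calls among the 56 related genes described below, from 7 to 12 lower and from 6 to 9 higher. Shares of all tested genes with the block are not given here. Ing1 was at 68.9 and 76.6 CPM in WT and 39.7 and 41.2 CPM in Cfp1-/- cells (log2 fold change -0.85 ± 0.14, adjusted p = 0.0025). Sin3b was at 155 and 180 CPM against 100.5 and 100.2 CPM (-0.74 ± 0.12, adjusted p = 0.0024), and Rbbp7 at 318 and 417 CPM against 267 and 229 CPM (-0.57 ± 0.16, adjusted p = 0.026). Rbbp4 (-0.45 ± 0.16) and Ing2 (-0.52 ± 0.19) had adjusted p-values of 0.059 and 0.076, and of 0.015 and 0.037 with the block. Without the second runs of both treated replicates 1 the blocked Ing2 difference was -0.49 and missed the threshold (adjusted p = 0.0504). Rbbp4 also passed with DESeq2 (0.032), DESeq2 size factors (0.046) and no filter on low counts (0.027). Suds3 was at -0.38 ± 0.19 (adjusted p = 0.15), and passed when the second runs of both treated replicates 1 were left out (-0.47, adjusted p = 0.048, and 0.011 with the block). Hdac2 and Sap30 had estimates above 0, at 0.18 ± 0.14 and 0.04 ± 0.20, with adjusted p-values of 0.39 and 0.91. The comparisons in untreated and in treated cells share no libraries, whereas each shares libraries with the responses above. Both came from 1 fit of all groups with a shared estimate of the spread, so they are not independent.

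The median difference between the lines varied by chromosome. The median over the 821 tested genes of chromosome 8, which holds Sin3b, Sap30, Ing1 and Ing2, was -0.23 in untreated and -0.26 in treated cells, the lowest of all chromosomes in untreated cells. Untreated medians of the chromosomes of the other genes were nearer 0, at 0.04 for X, -0.06 for 9, -0.10 for 5, -0.11 for 4 and -0.13 for 10. Those of chromosomes 7 and 11, which hold none of the 10 genes, were 0.53 and 0.51. Relative to the chromosome 8 median the untreated differences were -0.51 for Ing1, -0.26 for Ing2, -0.16 for Sin3b and -0.08 for Sap30. The difference was -0.76 for Rbbp7 relative to the median of X, and -0.52 for both Rbbp4 and Suds3 relative to those of chromosomes 4 and 5. The part of these chromosome-wide differences in the results was not tested. Scaling to total counts raised the median of all genes by 0.19 in untreated cells and the share of higher calls from 52.1% to 70.4%, and in treated cells that share from 57.0% to 67%. Under it Suds3 (-0.42, adjusted p = 0.10) and Sin3b (-0.20, adjusted p = 0.21) were no longer called in untreated cells and the estimates of Sin3a (0.04) and Hdac1 (0.07) turned positive, whereas Ing1 (-0.55), Rbbp7 (-0.53) and Rbbp4 (-0.44) passed.

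Single libraries decided some of these calls. In untreated cells Ing1 passed in all 8 fits that left out a replicate, whereas Rbbp7 missed the threshold without untreated Cfp1-/- replicate 1 (-0.64, adjusted p = 0.056) and Rbbp4 without untreated WT replicate 2 (-0.55, adjusted p = 0.066) or untreated Cfp1-/- replicate 2 (-0.53, adjusted p = 0.078). Suds3 missed it without untreated WT replicate 1 or 2 or untreated Cfp1-/- replicate 1 (-0.63, -0.60 and -0.45, adjusted p = 0.070, 0.093 and 0.19). Sin3b missed it in 6 of 8, without any of the 4 untreated replicates or without either treated Cfp1-/- replicate (-0.42 to -0.34, adjusted p 0.053 to 0.14), and also with the untreated groups fitted alone (-0.37, adjusted p = 0.058). In treated cells Ing1 and Sin3b passed in all 8, and Rbbp7 missed it without treated WT replicate 2 (-0.36, adjusted p = 0.15), treated Cfp1-/- replicate 1 (-0.69, adjusted p = 0.058) or treated Cfp1-/- replicate 2 (-0.46, adjusted p = 0.18). Rbbp4 gained a call there without untreated WT replicate 1 or 2 (-0.49 in each, adjusted p = 0.049 in each) or treated WT replicate 2 (-0.61, adjusted p = 0.038), and Suds3 without treated WT replicate 1 (-0.65, adjusted p = 0.019).

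**Figure D4:**
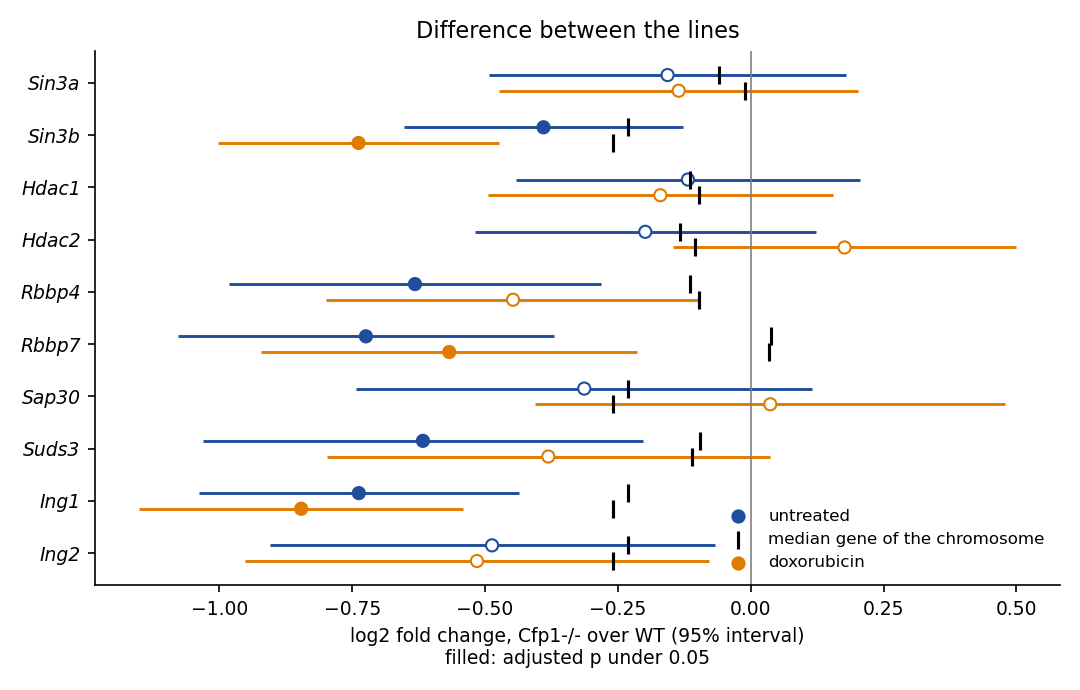
Log2 fold change of each gene in Cfp1-/- over WT ES cells, untreated and treated, with 95% intervals, filled where the adjusted p was under 0.05, and a tick at the median of the gene's chromosome. Ing1 is at -0.74 and -0.85, left of the chromosome 8 medians of -0.23 and -0.26, and Sin3a and Hdac1 cover 0 in both.

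To set the 10 genes among related ones, 58 further genes of the pathway were listed and 56 were tested. Of these, 21 were lower and 12 higher with doxorubicin in WT cells, beside 22.8% of all tested genes lower and 27.0% higher. In Cfp1-/- cells 20 were lower and 8 higher, beside 21.4% and 27.7% of all tested genes. The same shares are the background for the counts of each list below. None had a response that differed between lines at an adjusted p under 0.05 in edgeR or DESeq2. At an unadjusted p under 0.05, 4 did in edgeR, beside 1809 of the 15762 tested genes, and 4 in DESeq2. Scaled to total counts 12 of the 56 were lower and 18 higher in WT cells, beside 1947 and 5865 of all 15762 tested genes. In Cfp1-/- cells 13 were lower and 11 higher, beside 2128 and 5216. Most calls of these lists in WT cells were thus lower under 1 scaling and higher under the other. Relative to all tested genes, lower calls were more frequent and higher calls less frequent in these lists under both scalings, which was not tested.

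Among 14 other Sin3 subunits and partners, 7 were lower and none higher in each line, beside 22.8% of all tested genes lower in WT and 21.4% in Cfp1-/- cells. The largest change was that of Fam60a, a subunit of the Sin3 complex in ES cells, which went from a mean of 533 to 102 CPM in WT (log2 fold change -2.39 ± 0.13, adjusted p = 3.4e-06) and from 161 to 36 CPM in Cfp1-/- cells (-2.16 ± 0.13, adjusted p = 6.6e-06). Fam60a was also the gene with the largest difference between untreated lines among those listed, at -1.73 ± 0.13 (adjusted p = 4.6e-05). Phf12, the lysine demethylases Kdm5a and Kdm5b, the glycosyltransferase Ogt and Arid4b were lower with doxorubicin in both lines as well. Under total counts 2 of the 14 were lower in WT cells, Fam60a and Phf12, and 3 were higher, Sap18, Sap30l and Arid4a, whereas in Cfp1-/- cells Fam60a, Kdm5b and Phf12 were lower and none was higher.

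Of the 10 further NuRD genes, 2 were higher and 2 lower in each line. Over all tested genes 27.0% were higher and 22.8% lower in WT cells, and 27.7% and 21.4% in Cfp1-/- cells. Chd5, a chromatin remodeller, rose from 15.6 to 88.7 CPM in WT (log2 fold change 2.5 ± 0.21, adjusted p = 2.3e-05) and from 7.44 to 61.9 CPM in Cfp1-/- cells (3.06 ± 0.22, adjusted p = 1.3e-05), and was lower in untreated Cfp1-/- than in untreated WT cells (-1.07 ± 0.22, adjusted p = 0.0049). Its paralogue Chd4, the main remodeller of NuRD, fell by 0.70 on the log2 scale in WT and by 0.60 in Cfp1-/- cells. Mta1 rose in both lines and was lower in untreated Cfp1-/- cells (-1.26 ± 0.16, adjusted p = 0.00058).

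In CoREST, 3 of 6 genes were lower and 2 higher in WT cells, and 3 were lower and 3 higher in Cfp1-/- cells. Phf21a fell in both lines, with log2 fold changes of -2.02 in WT (SE 0.18, adjusted p = 2.7e-05) and -1.43 in Cfp1-/- cells (adjusted p = 0.00020). The corepressor Rcor2 also fell in both, with log2 fold changes of -2.14 in Cfp1-/- (SE 0.25, adjusted p = 0.00014) and -1.76 in WT cells (adjusted p = 0.00037). Of 6 NCoR and SMRT genes, 3 were lower in each line, and 2 were higher in WT cells. Gps2 was higher in untreated Cfp1-/- than in WT cells by 1.53 ± 0.17 (adjusted p = 0.00035), and lies on chromosome 11, whose median was 0.51.

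Of 7 other deacetylases tested, 4 were higher in WT cells and 2 in Cfp1-/- cells, beside 27.0% and 27.7% of all tested genes, and none was lower in either. Hdac11 rose from 1.51 to 6.51 CPM in Cfp1-/- cells (log2 fold change 2.11 ± 0.42, adjusted p = 0.0027) and by 1.36 on the log2 scale in WT cells (adjusted p = 0.017). Hdac10 rose by 1.32 in WT and 1.71 in Cfp1-/- cells, both from levels under 4 CPM. Hdac4 was left out because 2 identifiers carry its symbol. Among Ing3, Ing4 and Ing5, 2 were lower in WT and 1 in Cfp1-/- cells, with Ing5 lower in both. Of 10 acetyltransferase genes, 4 were lower in each line, with 2 higher in WT and 1 in Cfp1-/- cells. Kat2b, which acetylates histone H3, fell from 154 to 42.5 CPM in WT cells (-1.86 ± 0.20, adjusted p = 8.7e-05) and from 131 to 50.6 CPM in Cfp1-/- cells (-1.38, adjusted p = 0.00048).

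**Figure D5:**
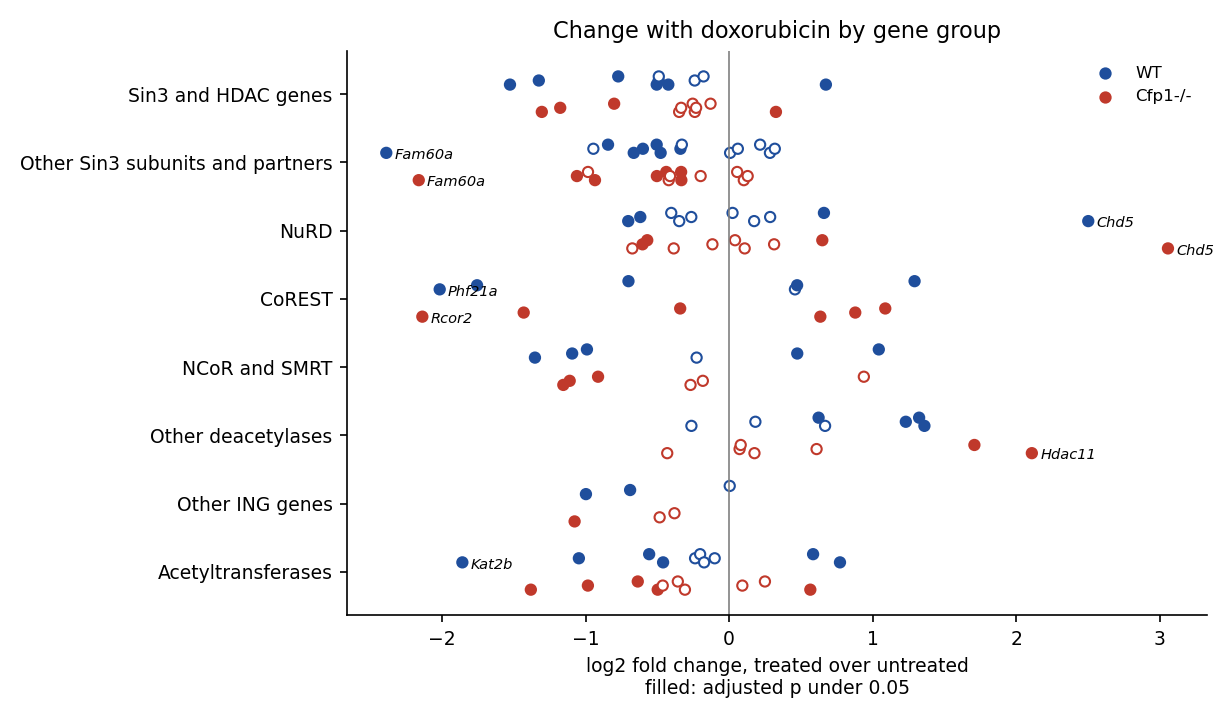
Log2 fold change with doxorubicin of the 10 genes and of 56 related genes by group, in WT (upper points of each row) and Cfp1-/- cells (lower points), filled where the adjusted p was under 0.05. Fam60a lies farthest left, at -2.39 and -2.16, and Chd5 farthest right, at 2.5 and 3.06, and the names are those past 1.8 in size.

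The tested genes most like each of the 10 were found from the root mean square (RMS) difference of log2 CPM, centred on each gene's mean, over the 8 libraries. For Sin3a, Zfp217 was among them (0.07), against 0.84 for the median tested gene, and its closest relative among the 10 was Sap30 (0.25). Sin3b was closest to Dgat1 (0.07) and Skiv2l (0.08), and its closest among the 10 was Ing1, at 0.42. The smallest distance within the set was that of Rbbp7 and Suds3, at 0.13. Rbbp7 was closest to Kpna4 and Zc3h14 (both 0.07), Hdac1 to N6amt1 (0.06) and Rnf8 (0.07), Hdac2 to Psma6 (0.05) and Copb2 (0.07), and Rbbp4 to Elavl1 and Tardbp (both 0.07). The nearest genes were Uba3 (0.10) and Srfbp1 (0.11) for Sap30, and Sae1 and Dpy19l1 (both 0.07) for Suds3. Ing1 was nearest to Tmsb4x (0.08) and Sh3d19 (0.09), and Ing2 to Ccnl1 and Tra2b (both 0.06). The 8 libraries fall into 4 groups, so these distances mostly describe the group means.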

How the data were processed

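Per the labels and the study's methods, ribosomal RNA-depleted, strand-specific libraries were read in pairs, aligned to NCBIm37 (mm9) with STAR (version 2.2.1 in the submitters' processing notes) and counted on exons of Ensembl genes with HTSeq (stranded, union mode). The authors deposited raw counts per technical run and normalized counts per biological replicate. The signal the authors deposited as normalized counts equals the sum of the runs over a factor per library, for 100% of genes to within 0.01 counts when checked here. That factor was read from the deposited values themselves, so its origin as a DESeq size factor was not checked.

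Raw counts of technical runs were summed, without the second run of replicate 1 of treated Cfp1-/- cells, since counts past a point on chromosome 19 and on X and Y were missing from it. This leaves n = 2 per group. Libraries held 11767781 to 29417672 counts over tested genes. edgeR 4.0.16 (R 4.3.3) was used with filterByExpr, TMM, 1 coefficient per group, quasi-likelihood tests and Benjamini-Hochberg adjustment over 15762 genes. The common dispersion was 0.0283. Changed means an adjusted p under 0.05. Intervals are 95% and rest on 9.41 degrees of freedom. Paralogue ratios were compared by exact two-sided permutation within strata. Scripts were tested on simulated data. CPM were computed here from raw counts with TMM library sizes (total counts for marker sums), and exon lengths came from the GENCODE annotation of NCBIM37. The labels say that the replicates are biological but not what same-numbered ones share. Deviations of same-numbered replicates from group means correlated at 0.18 to 0.61 in all 6 pairs of groups, so the fit with the replicate number as a block is given where it changes a call, while neither the main fit nor the permutations pair the samples.

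Alternatives were DESeq2 1.42.0, its size factors, total counts, no low-count filter, a replicate block, all or first runs alone, the compared groups alone, the deposited normalized counts as log2(value + 1) with limma 3.58.1, the study's limits and each replicate left out. Fits without the second runs of both treated replicates 1 were added after seeing the data. All 10 genes were named, with the 4 listed pathway genes of largest change per comparison and the 2 genes most like each, of which 1 is not reported here. Other pathway genes were named after their values were seen, as examples of counts. The genes and lists were chosen with earlier results of these data known.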

Additional observations from a re-analysis of the deposited data

How the results depend on the processing

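Of the 10 genes, 7 changed with doxorubicin in WT cells, 3 when scaled to total counts and 2 by the study's limits, with 4 to 7 when a replicate was left out. It was 8, with Suds3, by DESeq2, its size factors, no filter, the block and limma, 6 with all technical runs and 5 with the WT groups alone. Of all 15762 tested genes 7836 changed in WT cells in the main fit. Under total counts 5865 were higher and 1947 lower. In Cfp1-/- cells 4 changed, none by the study's limits, with 2 to 4 when a replicate was left out. For differences between untreated lines the count of 5 became 3 with total counts and 0 by the study's limits, and lay between 2 and 5 without a replicate. Between treated lines the count of 3 became 5 with the replicate block, also 5 with the block and without the second runs of both treated replicates 1, where Suds3 took the place of Ing2, and 0 by the study's limits, with 2 to 4 without a replicate. A response difference was called for 0 of the 10 genes in each alternative. Of all tested genes the main fit called 7734 in Cfp1-/- cells, 5651 between untreated lines, 4418 between treated lines and 39 for the response difference. Shares of all tested genes under most other settings, and by the study's limits between lines, are not given here. A change in these counts between settings is therefore not a result about the 10 genes. No called fold change changed sign in any alternative run. The block changed no call other than those of Suds3 in WT cells, Ing1 in Cfp1-/- cells, Ing2 in both line comparisons and Rbbp4 in treated cells. Without correction for exon length 6 of the 10 genes changed rank in untreated WT cells. The change of the Sin3a to Sin3b ratio with doxorubicin lay between -1.95 and -1.68 on the log2 scale without a replicate. With n = 2, differences of the size seen for Hdac1 or for the interaction of Sin3b were not detectable. Causes of the lost calls were not tested.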
